A study of Homo sapiens and Mus musculus with 15 samples.

Results

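NRF2, encoded by NFE2L2, is a transcription factor that drives the genes cells use against oxidants and reactive chemicals. KEAP1 binds NRF2 in the cytoplasm and presents it for ubiquitination, so that the proteasome destroys it until oxidants or electrophiles modify KEAP1. Freed NRF2 pairs with small MAF proteins on antioxidant response elements near genes that make glutathione, import cystine, reduce quinones, break down haem and keep thioredoxin reduced. Plasma cells make large amounts of disulfide-bonded antibody and depend on the proteasome, and bortezomib and carfilzomib, both proteasome inhibitors, are used against their tumours.

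The genes described are 10 of this system, taken by name: NFE2L2, KEAP1, HMOX1, NQO1, GCLC, GCLM, TXNRD1, SRXN1, SLC7A11 and GPX4. All 10 were found among the 23346 genes listed for each human library and, as title-case symbols, among the 23329 listed for each mouse library. RNA was sequenced in 15 libraries of 2 myeloma lines, with 3 libraries in each of 5 groups. The drug-naive groups were 5TGM1, a mouse line passaged from a plasma cell tumour of C57Bl/KaLwRij mice, and RPMI-8226, called 8226 below, a human plasma cell myeloma line. The resistant groups were 5TGM1 kept in 20 nM bortezomib, 8226 kept in 10 nM bortezomib and 8226 kept in 10 nM carfilzomib. All 3 were raised by culture in rising drug and were off the drug for 5 days when RNA was taken. Each resistant group is 1 derived line, so resistance, the drug and the derivation of that line cannot be told apart. The labels do not say whether the 3 libraries of a group came from separate cultures, and the tests therefore speak only of how far these libraries scatter, possibly by technique alone. In such bulk RNA, fewer cells of a type and less RNA per cell cannot be told apart.

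Reads on genes totalled 49097494 to 72288680 in a 5TGM1 library and 31709636 to 58419576 in an 8226 library, the bortezomib-resistant 8226 libraries being the shallowest. Levels are CPM, the reads on a gene relative to the library's total, with library sizes scaled by TMM, a method that sets the bulk of genes equal between libraries. Markers of plasma cells reached 1 CPM in both lines (at least 8 of the 8 or 9 listed in each group). Their summed level was 6621 to 6874 CPM in naive and 8999 to 9378 in resistant 5TGM1, and 8533 to 9709 CPM in naive, 3747 to 3891 in bortezomib-resistant and 5516 to 5726 in carfilzomib-resistant 8226. Of the 12 macrophage markers, 2 in 5TGM1 and 4 or 5 in 8226 reached 1 CPM. Their sum was 284 to 288 and 377 to 426 CPM in naive and resistant 5TGM1, and 57.9 to 64.0, 60.2 to 63.6 and 173 to 185 CPM in naive, bortezomib-resistant and carfilzomib-resistant 8226. Without a count were FCGR1A and CD163 in bortezomib-resistant 8226, and MRC1, C1QB and CD163 in carfilzomib-resistant 8226. In naive 8226 CD163 and C1QB had only 2 counts each, FCGR1A 13 and MRC1 283. C1qa had no count in either 5TGM1 group, and Cd163 had none in resistant 5TGM1. The 8 T cell markers summed to 3.17 to 3.48 and 5.54 to 6.0 CPM in naive and resistant 5TGM1, and in the same order of 8226 groups to 547 to 598, 181 to 192 and 310.1 to 318 CPM. Single genes made up most of some of these sums. In naive 8226, CD28 averaged 556 CPM, with CD8A at 4.58, CD3E at 1.42 and TRAT1 and ICOS at 0. Cd68 averaged 266 CPM within the naive 5TGM1 macrophage sum, and IGJ 6894 CPM within the naive 8226 plasma cell sum. The 8 fibroblast markers stayed at or below 2.57 CPM in all 15 libraries, with DCN and LUM at 0 in each 8226 group, and the erythroid markers at or below 13.6 CPM, with HBB at 0 in each 8226 group. The part of these shifts in the changes given below was not tested.

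The human promoter sequences are shown first, because NRF2 acts on its target genes through the antioxidant response element. RefSeq (GRCh38.p14) gave windows from 250 bases before to 50 bases after an annotated start for 8 of the 10 genes, with 13 starts in all. Both strands were searched for the core letters TGACNNNGC and for the TGAGNNNGC form, where N is any base. At least 1 match stood in 5 of the 8 genes, namely NFE2L2, KEAP1, NQO1, GCLM and TXNRD1, against 33.7% of the 27305 genes with such windows. These shares are per gene, and a gene with more windows has more room for a match. The 27305 genes had 35116 windows, of which 29.1% held a match. NFE2L2 matched only at its first listed start and KEAP1 only at its second, while TXNRD1 matched at both. The C form stood in 3 of the 8 (KEAP1, GCLM and TXNRD1) and in 16.1% of all genes, and the G form in the same 5 and in 21.6% of all genes. GCLC, SRXN1 and GPX4 held neither. The AP-1 letters TGACTCA, which overlap the core in many response elements, and the C/EBP-ATF letters TGATGCAAT stood in none of the 8, against 6.05% and 0.293% of all genes. A match is a stretch of letters, not a tested binding site, and a window without one says nothing of sites elsewhere. The 4 lines below give the 250 bases upstream of the start, read in the direction of the gene, with whole matches of either core in capitals. GCLM and KEAP1 (its second listed start) are shown because they share the same 9 letters, NQO1 because its level spread most between the 8226 groups, and SRXN1 as a strongly changed gene with no match.
GCLM, chr1:93909431-93909680, minus strand: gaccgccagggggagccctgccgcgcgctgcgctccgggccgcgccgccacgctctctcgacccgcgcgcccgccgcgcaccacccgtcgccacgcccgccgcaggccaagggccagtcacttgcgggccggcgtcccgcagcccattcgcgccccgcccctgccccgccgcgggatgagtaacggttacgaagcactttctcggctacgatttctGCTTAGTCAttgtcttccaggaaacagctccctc
KEAP1, chr19:10502772-10503021, minus strand: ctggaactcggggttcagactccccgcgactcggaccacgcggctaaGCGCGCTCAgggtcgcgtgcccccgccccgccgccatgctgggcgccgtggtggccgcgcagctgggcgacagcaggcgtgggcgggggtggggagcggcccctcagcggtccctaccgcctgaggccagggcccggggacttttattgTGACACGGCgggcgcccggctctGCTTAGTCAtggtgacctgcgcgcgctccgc
NQO1, chr16:69726561-69726810, minus strand: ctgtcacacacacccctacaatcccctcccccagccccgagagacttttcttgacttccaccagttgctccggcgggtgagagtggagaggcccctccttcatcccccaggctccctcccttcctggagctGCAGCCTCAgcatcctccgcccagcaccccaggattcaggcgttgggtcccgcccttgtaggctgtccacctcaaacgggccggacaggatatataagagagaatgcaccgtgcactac
SRXN1, chr20:653201-653450, minus strand: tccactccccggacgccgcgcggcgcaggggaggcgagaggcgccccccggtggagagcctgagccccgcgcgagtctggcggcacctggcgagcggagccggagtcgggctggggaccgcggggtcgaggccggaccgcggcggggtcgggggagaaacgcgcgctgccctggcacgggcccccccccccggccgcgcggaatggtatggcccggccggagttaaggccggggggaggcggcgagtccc
The shared letters GCTTAGTCA, a core on the opposite strand, lay at bases -34 to -26 of GCLM and -31 to -23 of KEAP1, counted back from the start. KEAP1 had further matches at -203 to -195 and -54 to -46, and NQO1 had 1 match at -119 to -111. A second GCLM match, GCTCCCTCA at -8 to 1, runs over the start and is not in capitals.

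Across the 3 comparisons with naive cells the 10 genes did not move as 1 block. In bortezomib-resistant 5TGM1, 9 of the 10 had enough counts to be tested. Of these, 4 rose (Hmox1, Gpx4, Gclm and Keap1), 4 fell (Nqo1, Nfe2l2, Txnrd1 and Slc7a11) and Gclc did not pass an adjusted p of 0.05 in edgeR's quasi-likelihood test. Over all 11974 genes tested there, 34.0% rose and 33.2% fell. In bortezomib-resistant 8226, 4 of 10 rose (NQO1, GCLM, HMOX1 and SRXN1), 5 fell (NFE2L2, GCLC, KEAP1, SLC7A11 and TXNRD1) and GPX4 did not pass, where 38.2% of 13910 genes rose and 41.6% fell. In carfilzomib-resistant 8226, SRXN1 alone of the 10 rose, NQO1 and GPX4 fell and 7 did not pass, against 35.0% of genes higher and 36.7% lower. With plain library-size scaling, 2 rather than 5 members fell in bortezomib-resistant 8226 and 4 rather than 1 rose in carfilzomib-resistant 8226. The median log2 change of the tested members was 0.04, -0.04 and -0.02 in these 3 comparisons, beside 0.00, -0.03 and -0.00 over all genes. The shares of members that rose or fell with bortezomib resistance were thus near those of genes at large, and with carfilzomib resistance 3 of 10 members passed.

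**Figure D1:**
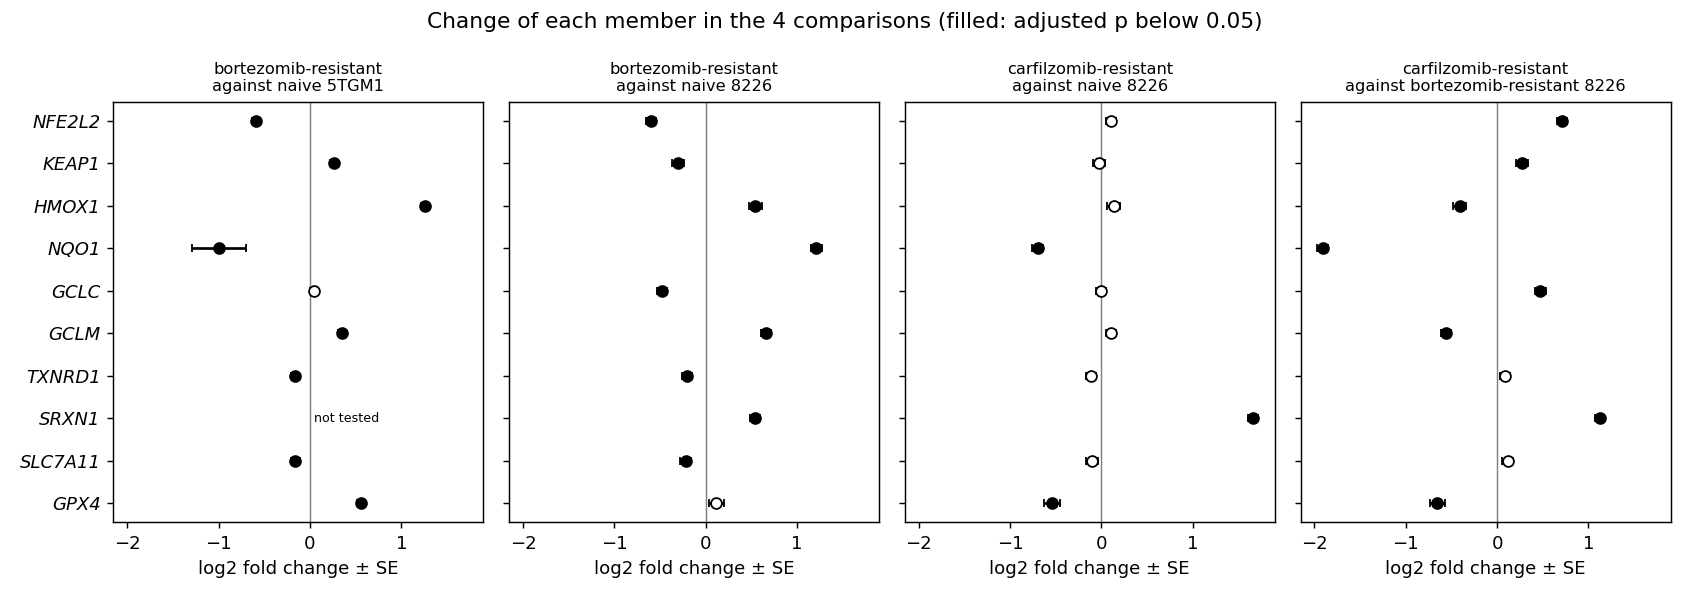
Log2 fold change with its standard error (horizontal axis) of each of the 10 genes (vertical axis) in 4 comparisons of 3 libraries against 3; filled points passed an adjusted p of 0.05 and open points did not. NFE2L2 lies at -0.59 and -0.60 in the bortezomib-resistant lines and at 0.11 in the carfilzomib-resistant one, and SRXN1 lies farthest right in the third panel at 1.66.

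RNA of the transcription factor itself fell in both bortezomib-resistant lines. All levels here are of RNA, and protein was not measured. Nfe2l2 stood at 76.2, 77.6 and 73.1 CPM in the naive 5TGM1 libraries and at 49.1, 51.9 and 50.1 in the resistant ones. NFE2L2 stood at 104, 108 and 98.9 CPM in naive 8226, at 71.4, 67.5 and 65.6 in bortezomib-resistant and at 112, 109 and 114 in carfilzomib-resistant 8226. Neither bortezomib-resistant group overlapped its naive group, and each resistant library lay below each naive one. The log2 change was -0.59 ± 0.0431 (SE, adjusted p = 4.25e-09) in 5TGM1 and -0.60 ± 0.0535 (adjusted p = 4.63e-08) in 8226, or 1.5-fold and 1.52-fold lower means. These 2 changes differed by 0.00 on the log2 scale, with a 95% interval of -0.14 to 0.15. With plain library-size scaling the difference was 0.19 and passed, and in DESeq2 it was -0.0369 and did not. In carfilzomib-resistant 8226 the change was 0.11 ± 0.0525 (adjusted p = 0.0769), which passed the threshold without naive library 2 (0.14) and with plain library-size scaling (0.17). NFE2L2 was 1.64-fold higher in the carfilzomib-resistant than in the bortezomib-resistant line (log2 0.71 ± 0.0533, adjusted p = 6.93e-09).

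RNA of KEAP1, the adaptor that marks NRF2 for destruction, went opposite ways in the 2 bortezomib-resistant lines. In 5TGM1 the naive libraries held Keap1 at 60.0, 62.5 and 64.1 CPM and the resistant ones at 74.2, 77.1 and 72.3. KEAP1 stood at 119, 110.4 and 130.1 CPM in naive, 97.3, 92.3 and 102 in bortezomib-resistant and 110.5, 119.8 and 123 in carfilzomib-resistant 8226. The resistant 5TGM1 libraries all lay above the naive ones and the bortezomib-resistant 8226 libraries all below, while the carfilzomib-resistant ones overlapped naive. Keap1 rose by 0.26 ± 0.0434 on the log2 scale in 5TGM1 (adjusted p = 5.7e-05), and KEAP1 fell by 0.30 in bortezomib-resistant 8226 (SE 0.0662, adjusted p = 0.000631). The latter call was lost with plain library-size scaling (-0.12). That scaling moved the median of all genes from -0.03 to 0.16 in this comparison and the share of calls that were higher from 47.9% to 58.8%. The carfilzomib-resistant change was -0.03 ± 0.0655 (adjusted p = 0.74) with a 95% interval of -0.15 to 0.10, and its sign was positive with plain scaling (0.04), without naive 8226 library 3 (0.04) and without carfilzomib-resistant library 1 (0.03).

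GCLC and GCLM encode the catalytic and the modifier subunit of glutamate-cysteine ligase, the first and rate-limiting enzyme of glutathione synthesis. In bortezomib-resistant 8226 the 2 subunits went opposite ways. GCLC stood at 118, 128 and 109 CPM in naive, 86.0, 83.9 and 84.4 in bortezomib-resistant and 117, 119 and 117 in carfilzomib-resistant 8226. GCLM stood at 38.1, 38.8 and 40.7, then 61.8, 64.1 and 60.2, then 40.8, 42.6 and 42.8 CPM in the same order. For both genes the bortezomib-resistant libraries lay apart from the other 6, below them for GCLC and above them for GCLM. Against naive, GCLC fell by 0.48 on the log2 scale (SE 0.0567, adjusted p = 1.32e-06) and GCLM rose by 0.66 ± 0.0547 (adjusted p = 1.96e-08). In carfilzomib-resistant 8226 neither subunit passed, with GCLC at -0.01 ± 0.056 (adjusted p = 0.925; 0.06 with plain library-size scaling and 0.05 without naive library 2) and GCLM at 0.10 ± 0.0546 (adjusted p = 0.107). GCLM was higher in each of the 3 carfilzomib-resistant libraries than in each naive one, and passed with plain library-size scaling (0.16).

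In 5TGM1 the modifier subunit rose and the catalytic subunit did not pass. Gclm stood at 24.0, 24.3 and 24.8 CPM in naive and 30.1, 30.9 and 32.2 in resistant libraries (log2 0.35 ± 0.0468, adjusted p = 5.31e-06), with no overlap. Gclc stood at 52.7, 54.2 and 52.2 CPM in naive and 55.7, 52.1 and 56.2 in resistant libraries, which overlapped. Its change was 0.04 ± 0.044 (adjusted p = 0.395), with a 95% interval of -0.04 to 0.13.

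SLC7A11 encodes the transporter subunit that brings in cystine, the source of cysteine for glutathione, in exchange for glutamate. Its changes were small in both lines. In 5TGM1 naive libraries held Slc7a11 at 88.9, 105 and 93.4 CPM and resistant ones at 86.5, 86.6 and 84.4, a log2 change of -0.16 ± 0.0526 (adjusted p = 0.014). The naive libraries spread over more than the distance between the group means, and the call was lost without naive library 2 (-0.09) or without resistant library 3 (-0.14). In 8226 SLC7A11 stood at 50.7, 50.6 and 51.3 CPM in naive, 42.7, 46.7 and 41.9 in bortezomib-resistant and 50.4, 47.3 and 44.5 in carfilzomib-resistant libraries. It fell by 0.22 (SE 0.0621, adjusted p = 0.00478) in the bortezomib-resistant line, a call lost with plain library-size scaling (-0.03), and its carfilzomib-resistant change of -0.10 ± 0.0612 did not pass (adjusted p = 0.146).

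NQO1 encodes a quinone reductase that is widely read as a marker of NRF2 activity, and it moved in opposite directions in the 2 resistant 8226 lines. It stood at 35.7, 37.0 and 37.5 CPM in naive, 86.4, 80.3 and 88.9 in bortezomib-resistant and 22.3, 22.9 and 22.8 in carfilzomib-resistant 8226. The 3 groups did not overlap, with bortezomib-resistant highest and carfilzomib-resistant lowest. NQO1 was 2.32-fold higher in the bortezomib-resistant line (log2 1.21 ± 0.056, adjusted p = 1.57e-11) and 1.62-fold lower in the carfilzomib-resistant line (log2 -0.70 ± 0.0575, adjusted p = 2.96e-08) than in naive cells. Between the 2 resistant lines the means differed 3.76-fold (log2 -1.91 ± 0.0574 for carfilzomib-resistant minus bortezomib-resistant, adjusted p = 1.02e-13).

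In 5TGM1 Nqo1 was close to the detection limit. It had 55 counts over the 3 naive and 26 over the 3 resistant libraries, that is 0.325, 0.331 and 0.306 CPM against 0.144, 0.191 and 0.142 CPM. The resistant libraries were all lower, and edgeR gave -1.0 ± 0.296 (adjusted p = 0.0069). DESeq2 gave a like change (-1.01) that did not pass, with an adjusted p of 0.0853.

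HMOX1 encodes haem oxygenase 1, which breaks haem down to biliverdin, iron and carbon monoxide, and it rose in both bortezomib-resistant lines. Hmox1 had the largest change of the tested members in 5TGM1. Naive libraries held it at 46.4, 43.6 and 43.3 CPM and resistant ones at 108, 108 and 102, 2.39-fold higher (log2 1.26 ± 0.0443, adjusted p = 3.72e-13). In 8226 HMOX1 stood at 32.5, 30.3 and 33.5 CPM in naive, 45.7, 44.9 and 49.9 in bortezomib-resistant and 33.6, 38.9 and 33.4 in carfilzomib-resistant libraries. The bortezomib-resistant libraries lay above all others, at log2 0.54 ± 0.0724 over naive (adjusted p = 4.83e-06). The carfilzomib-resistant libraries overlapped naive (0.13 ± 0.0722, adjusted p = 0.107), a change that passed with plain library-size scaling (0.20).

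**Figure D2:**
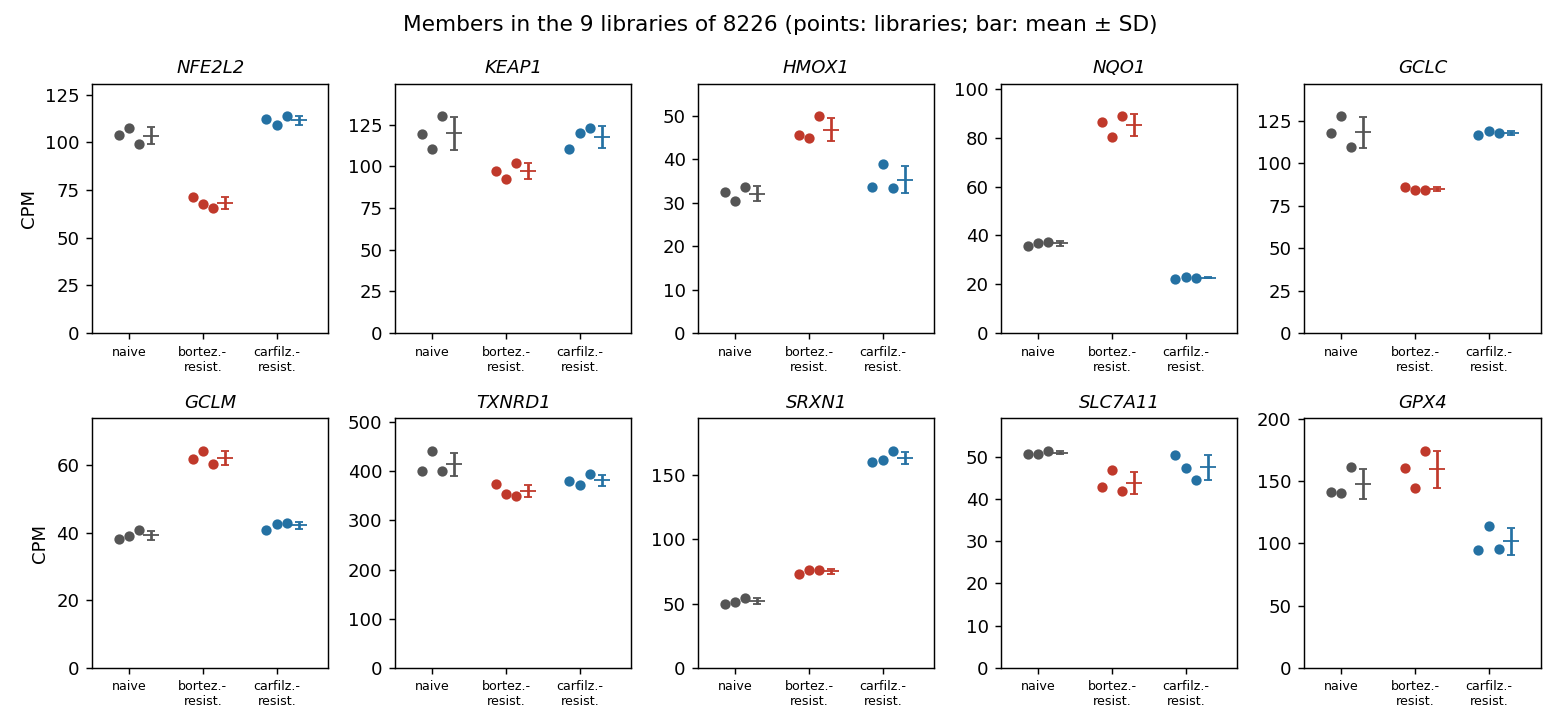
Level in CPM (vertical axes, from 0) of the 10 genes in naive, bortezomib-resistant and carfilzomib-resistant 8226; points are the 3 libraries of a group and the bar beside them is the mean ± SD. NQO1 is highest in the bortezomib-resistant libraries (80.3 to 88.9 CPM), SRXN1 is highest in the carfilzomib-resistant libraries (160.3 to 169 CPM), and GPX4 is lowest there (94.8 to 114 CPM).

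SRXN1 encodes sulfiredoxin, which restores over-oxidised peroxiredoxins, and it was the member with the largest rise in carfilzomib-resistant 8226. It stood at 49.8, 51.2 and 54.4 CPM in naive, 73.1, 76.2 and 76.1 in bortezomib-resistant and 160.3, 162 and 169 in carfilzomib-resistant libraries. The groups did not overlap and rose in that order. Against naive, SRXN1 was 1.45-fold higher in the bortezomib-resistant line (log2 0.54 ± 0.0528, adjusted p = 1.53e-07) and 3.16-fold higher in the carfilzomib-resistant line (log2 1.66 ± 0.0528, adjusted p = 2.85e-13). The carfilzomib-resistant line was also above the bortezomib-resistant one by 1.12 ± 0.0519 (adjusted p = 1.9e-11). In 5TGM1 Srxn1 had 1 count in naive library 3 and none in the other 5 libraries. No count in the 3 resistant libraries allows a level of up to 0.0185 CPM, by counting error alone, and no change was computed.

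TXNRD1 encodes the cytosolic thioredoxin reductase, a selenoprotein that passes electrons from NADPH to thioredoxin, and its changes lay between -0.20 and 0.09 on the log2 scale in the 4 comparisons. In 5TGM1 Txnrd1 stood at 166, 178 and 179 CPM in naive and 163, 151 and 153 in resistant libraries, without overlap (log2 -0.16 ± 0.0448, adjusted p = 0.00433). In 8226 TXNRD1 stood at 399.8, 441 and 400.5 CPM in naive, 374, 354 and 351 in bortezomib-resistant and 379, 372 and 394 in carfilzomib-resistant libraries. All 6 resistant 8226 libraries lay below all 3 naive ones. The bortezomib-resistant change was -0.20 ± 0.0542 (adjusted p = 0.00295) and was lost with plain library-size scaling (-0.02). The carfilzomib-resistant change was -0.12 ± 0.0541 (adjusted p = 0.0664), and it passed without naive library 3 (-0.14) and in DESeq2 (-0.14).

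GPX4 encodes the selenium-containing peroxidase that uses glutathione to reduce lipid hydroperoxides in membranes and guards against ferroptosis. It rose in bortezomib-resistant 5TGM1 and fell in carfilzomib-resistant 8226. In 5TGM1 the naive libraries held Gpx4 at 104, 94.7 and 102 CPM and the resistant ones at 150.1, 145 and 148, 1.47-fold higher (log2 0.56 ± 0.0439, adjusted p = 9.41e-09). GPX4 stood at 141, 140.3 and 161 CPM in naive, 160.4, 145 and 174 in bortezomib-resistant and 94.8, 114 and 95.6 in carfilzomib-resistant 8226. The carfilzomib-resistant libraries lay below the other 6, while the bortezomib-resistant and naive ranges overlapped. Against naive the change was -0.54 ± 0.0832 in the carfilzomib-resistant line (adjusted p = 2.97e-05) and 0.11 ± 0.0829 in the bortezomib-resistant line (adjusted p = 0.213; interval -0.05 to 0.28), the latter passing at 0.30 with plain library-size scaling.

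**Figure D3:**
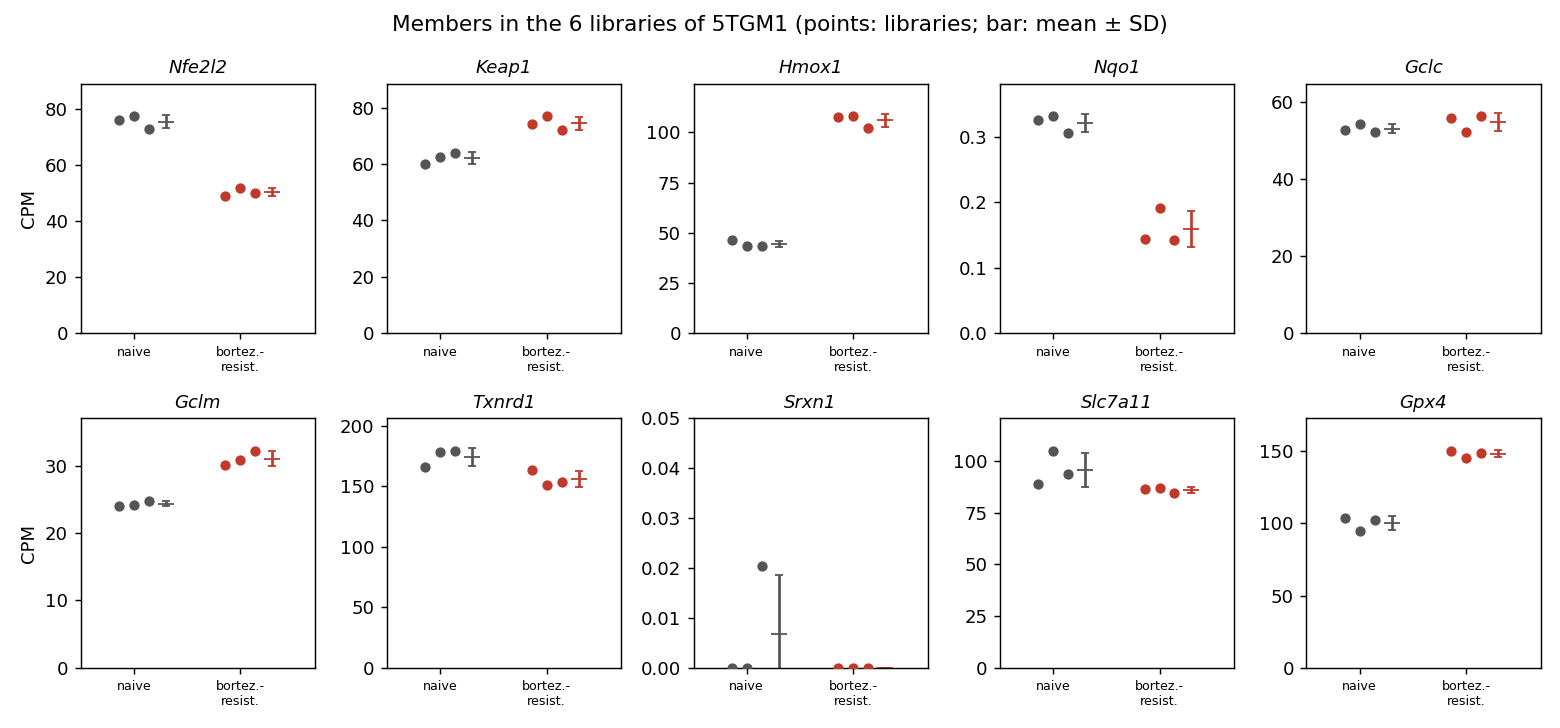
Level in CPM (vertical axes, from 0) of the 10 genes in naive and bortezomib-resistant 5TGM1; points are the 3 libraries of a group and the bar beside them is the mean ± SD. The resistant libraries stand highest over naive for Hmox1 (102 to 108 against 43.3 to 46.4 CPM), and the Srxn1 panel holds 1 point above 0.

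Whether bortezomib resistance changed each gene differently in 8226 and 5TGM1 was tested as an interaction over 11847 genes shared by symbol. Of the 9 members with a value, 2 had a higher change in 8226 and 4 a lower one, against 31.4% and 33.5% of genes. Higher in 8226 were NQO1, by 2.23 ± 0.268 (adjusted p = 4.07e-07), and GCLM, by 0.33 ± 0.0746 (adjusted p = 0.00066). Lower in 8226 were HMOX1, by -0.69 ± 0.0814 (adjusted p = 3.25e-07), KEAP1, by -0.54 ± 0.0845 (adjusted p = 1.22e-05), GCLC, by -0.50 ± 0.0795 (adjusted p = 1.48e-05), and GPX4, by -0.42 ± 0.0944 (adjusted p = 0.000568). HMOX1 and GCLM thus rose in both lines by different amounts, whereas NQO1 and KEAP1 rose in 1 line and fell in the other. The fall of Nqo1 in 5TGM1 rests on 55 naive and 26 resistant counts and did not pass in DESeq2. The fall of KEAP1 in 8226 did not pass with plain library-size scaling. TXNRD1 (-0.02, interval -0.17 to 0.13) and SLC7A11 (-0.04, interval -0.20 to 0.12) did not pass. With plain library-size scaling these differences were 0.16 and 0.14, above their intervals, and still did not pass. The lines differ in species, dose and gene annotation, and these cannot be told apart from the line.

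The carfilzomib-resistant and bortezomib-resistant 8226 lines were also set against each other. Of the 10 members, 4 were higher in the carfilzomib-resistant line (SRXN1, NFE2L2, GCLC and KEAP1) and 4 lower (NQO1, GPX4, GCLM and HMOX1), against 39.9% and 37.0% of 13910 genes. GCLC differed by 0.47 ± 0.0565 (adjusted p = 1.61e-06) and GCLM by -0.56 ± 0.0541 (adjusted p = 1.41e-07), so that the 2 subunits again lay on opposite sides. GPX4 differed by -0.66 ± 0.0833 (adjusted p = 3.22e-06), HMOX1 by -0.41 ± 0.0715 (adjusted p = 8.55e-05) and KEAP1 by 0.28 ± 0.066 (adjusted p = 0.00133). TXNRD1 (0.09, adjusted p = 0.156) and SLC7A11 (0.11, adjusted p = 0.104) did not pass. SLC7A11 passed without bortezomib-resistant library 2 or carfilzomib-resistant library 3 (0.16 in each case), and both genes had the opposite sign with plain library-size scaling (-0.04 and -0.01). This comparison shares its libraries with those against naive 8226, so it is not separate evidence for them.

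Related genes, in 10 lists that leave out the members, were counted in the same tests. In bortezomib-resistant 5TGM1, 10 rose and 7 fell of the 25 tested genes of glutathione synthesis and use, and the median change was 0.09. Over all genes of this comparison 34.0% rose and 33.2% fell, and the shares of this list lie near those. Gss, the second enzyme of glutathione synthesis, rose from 16.4 ± 0.518 to 25.1 ± 0.596 CPM (mean ± SD), and Ggct, of the gamma-glutamyl cycle, from 10.4 ± 0.619 to 14.9 ± 0.534. Gsto1, a glutathione transferase, fell (log2 -0.49). Of the 14 tested NRF2 partners and regulators 5 rose and 4 fell. Sqstm1, whose protein p62 takes KEAP1 to autophagy, rose from 929 ± 22.6 to 1315 ± 24.8 CPM, and Mafk, a small MAF partner, fell from 36.6 ± 0.711 to 25.8 ± 1.35 CPM. The haem and iron list (8 rose and 5 fell of 18) held the biggest named rise, that of Tfr2, a transferrin receptor, from 12.1 ± 0.213 to 99.3 ± 3.69 CPM. Blvrb, a biliverdin reductase, rose with it from 40.8 ± 1.32 to 83.6 ± 1.42 CPM. Slc39a14 and Ncoa4 of the same list fell (log2 -1.32 and -0.89).

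Among the NADPH genes of 5TGM1, which supply the reducing power for glutathione and thioredoxin, 5 rose and 5 fell of 14. Me1, the cytosolic malic enzyme, rose from 30.4 ± 0.622 to 115 ± 0.702 CPM, and Tkt, transketolase, fell from 446 ± 22.1 to 203 ± 9.20 CPM. The superoxide dismutases parted, with Sod1 of the cytosol higher (445 ± 24.8 to 710.3 ± 16.6 CPM) and Sod2 of mitochondria lower (123 ± 4.18 to 66.4 ± 1.70 CPM). Of the thioredoxin and peroxiredoxin list 8 rose and 3 fell of 19, of the selenoprotein list 8 and 4 of 16, of the lipid peroxidation list 6 and 2 of 12, of cystine and sulfur amino acid supply 8 and 7 of 17, and of NRF2-linked detoxification 4 and 3 of 12. The medians of the 10 lists ran from -0.02 to 0.13, beside 0.00 for all genes, of which 34.0% rose and 33.2% fell.

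In bortezomib-resistant 8226 the haem and iron list had 6 genes higher and 12 lower of 20, with a median of -0.29 beside -0.03 for all genes, of which 38.2% rose and 41.6% fell. With plain library-size scaling the list had 7 higher and 9 lower and a median of -0.10, beside 0.16 for all genes. FTL, the ferritin light chain and a known NRF2 target, fell from 2933 ± 67.9 to 702 ± 56.5 CPM, while ACO1, which reads cellular iron, rose from 14.8 ± 0.511 to 56.0 ± 1.06 CPM. Genes of thioredoxin and peroxiredoxin had 5 higher and 10 lower of 20, and 10 of each with plain scaling. PRDX4, the peroxiredoxin of the endoplasmic reticulum, fell from 407 ± 38.0 to 147 ± 8.27 CPM and TXNIP, which binds thioredoxin, from 449 ± 14.6 to 183 ± 7.36 CPM. In the lipid peroxidation list, 9 rose and 4 fell of 15, and FADS2, a fatty acid desaturase, fell from 350 ± 42.7 to 2.93 ± 0.223 CPM. GCH1, which makes tetrahydrobiopterin, rose there from 15.1 ± 0.772 to 33.6 ± 2.89 CPM.

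Glutathione genes of bortezomib-resistant 8226 were 12 higher and 11 lower of 27, and 14 higher and 7 lower with plain library-size scaling. Over all genes 38.2% rose and 41.6% fell with TMM. GPX7, a peroxidase of the endoplasmic reticulum, gave 5958 counts in all in naive cells but 3 in resistant ones, a ratio of 1763 with a 95% counting interval of 603 to 8551. The glutathione transferases GSTA4 (3.70 ± 0.293 to 14.8 ± 0.909 CPM) and MGST3 (6.62 ± 0.735 to 25.7 ± 1.84 CPM) rose. In cystine and sulfur amino acid supply, 6 rose and 7 fell of 16, and CBS, the first enzyme that turns homocysteine towards cysteine, fell from 213 ± 12.8 to 33.0 ± 1.18 CPM. SLC3A2, the heavy chain that SLC7A11 needs at the membrane, fell from 199 ± 22.4 to 129 ± 6.01 CPM. BACH2, a repressor that can bind response elements, rose from 5.64 ± 0.591 to 19.9 ± 0.277 CPM within an NRF2 partner list of 7 higher and 5 lower of 16.

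The NRF2-linked detoxification list had 7 higher and 9 lower of 17 in bortezomib-resistant 8226, where 38.2% of all genes rose and 41.6% fell. PIR, which encodes pirin, rose from 5.39 ± 0.159 to 23.2 ± 1.37 CPM, and EPHX1, an epoxide hydrolase, fell from 99.0 ± 1.34 to 15.8 ± 1.47 and AKR1B1, an aldose reductase, from 167 ± 10.7 to 44.4 ± 2.0 CPM. IDH1, an NADPH-making isocitrate dehydrogenase, rose from 40.8 ± 2.62 to 199 ± 5.12 CPM in a list of 6 higher and 5 lower of 14. Selenoprotein genes were 8 higher and 9 lower of 19, with SEPP1, the secreted selenium carrier, down from 27.1 ± 1.53 to 0.205 ± 0.0130 CPM. With plain library-size scaling the count of higher genes overtook that of lower ones in 3 of these lists, detoxification (8 higher, 7 lower), selenoproteins (9 and 7) and sulfur amino acid supply (7 and 6). It also gave 9 higher and 3 lower among both the NRF2 partners and the NADPH genes, and 11 higher and 3 lower in the lipid peroxidation list. That scaling shifted all genes upward, with 58.8% of all calls higher and a median of 0.16, so these counts do not set the lists apart.

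In carfilzomib-resistant 8226 the selenoprotein list, to whose class GPX4 and TXNRD1 belong, had 3 genes higher and 12 lower of 19, with a median of -0.33 beside -0.00 for all genes, of which 35.0% rose and 36.7% fell. With plain library-size scaling the list had 5 higher and 11 lower and a median of -0.27, beside 0.06 for all genes. SELT fell from 289 ± 26.9 to 168 ± 11 CPM and SECISBP2, which lets ribosomes read selenocysteine, from 56.4 ± 3.59 to 38.9 ± 0.991 CPM. Glutathione genes had 8 higher and 13 lower of 27. GLRX, glutaredoxin, fell from 72.0 ± 3.72 to 19.2 ± 1.52 CPM and GSTO1, a glutathione transferase, rose from 23.0 ± 4.10 to 50.5 ± 2.47 CPM. Of the thioredoxin and peroxiredoxin list 5 rose and 9 fell of 20, and MSRB3, a methionine sulfoxide reductase, rose from 0.328 ± 0.0303 to 15.2 ± 0.432 CPM. SESN1, a sestrin, rose from 51.1 ± 1.75 to 120.3 ± 2.90 CPM.

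Of the NRF2 partners 5 rose and 7 fell of 16 in the carfilzomib-resistant line, and 6 of each with plain library-size scaling. Over all genes 35.0% rose and 36.7% fell with TMM. CUL3, the scaffold of the ligase that KEAP1 serves, rose from 141 ± 8.13 to 199 ± 1.98 CPM, and GSK3B, a kinase that marks NRF2 by a KEAP1-independent route, fell from 81.1 ± 9.42 to 54.5 ± 0.916 CPM. AKR1B1 (167 ± 10.7 to 21.8 ± 1.44 CPM) and EPHX1 (99.0 ± 1.34 to 33.5 ± 0.523 CPM) fell in the detoxification list, which had 6 higher and 8 lower of 17, and 6 of each with plain scaling. The haem and iron list had 9 higher and 6 lower of 20, and FTL fell from 2933 ± 67.9 to 1858 ± 95.9 CPM. Lipid peroxidation genes were 6 higher and 4 lower of 15, with ACSL3, a long-chain fatty acyl-CoA synthetase, up from 94.1 ± 5.65 to 207 ± 3.09 CPM. The NADPH list had 5 higher and 4 lower of 14 and the sulfur amino acid list 5 and 5 of 16.

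Against the bortezomib-resistant line, the carfilzomib-resistant line had 12 haem and iron genes higher and 6 lower of 20, and 8 glutathione genes higher and 15 lower of 27. Over all genes 39.9% were higher and 37.0% lower, and plain library-size scaling gave 11 and 7 of the haem and iron genes and 5 and 16 of the glutathione genes. Of all calls, 51.9% were higher with TMM and 43.9% with plain scaling. FTL stood at 1858 ± 95.9 against 702 ± 56.5 CPM, and GPX1, the cytosolic glutathione peroxidase, at 92.5 ± 2.28 against 32.6 ± 3.20 CPM, both higher. PIR was lower, at 2.88 ± 0.136 against 23.2 ± 1.37 CPM, and so was BACH2, at 3.65 ± 0.148 against 19.9 ± 0.277 CPM. MSRB3 had 2311 counts in the carfilzomib-resistant and none in the bortezomib-resistant libraries, at least 546-fold higher against the 3 counts that a count of 0 over the group allows.

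**Figure D4:**
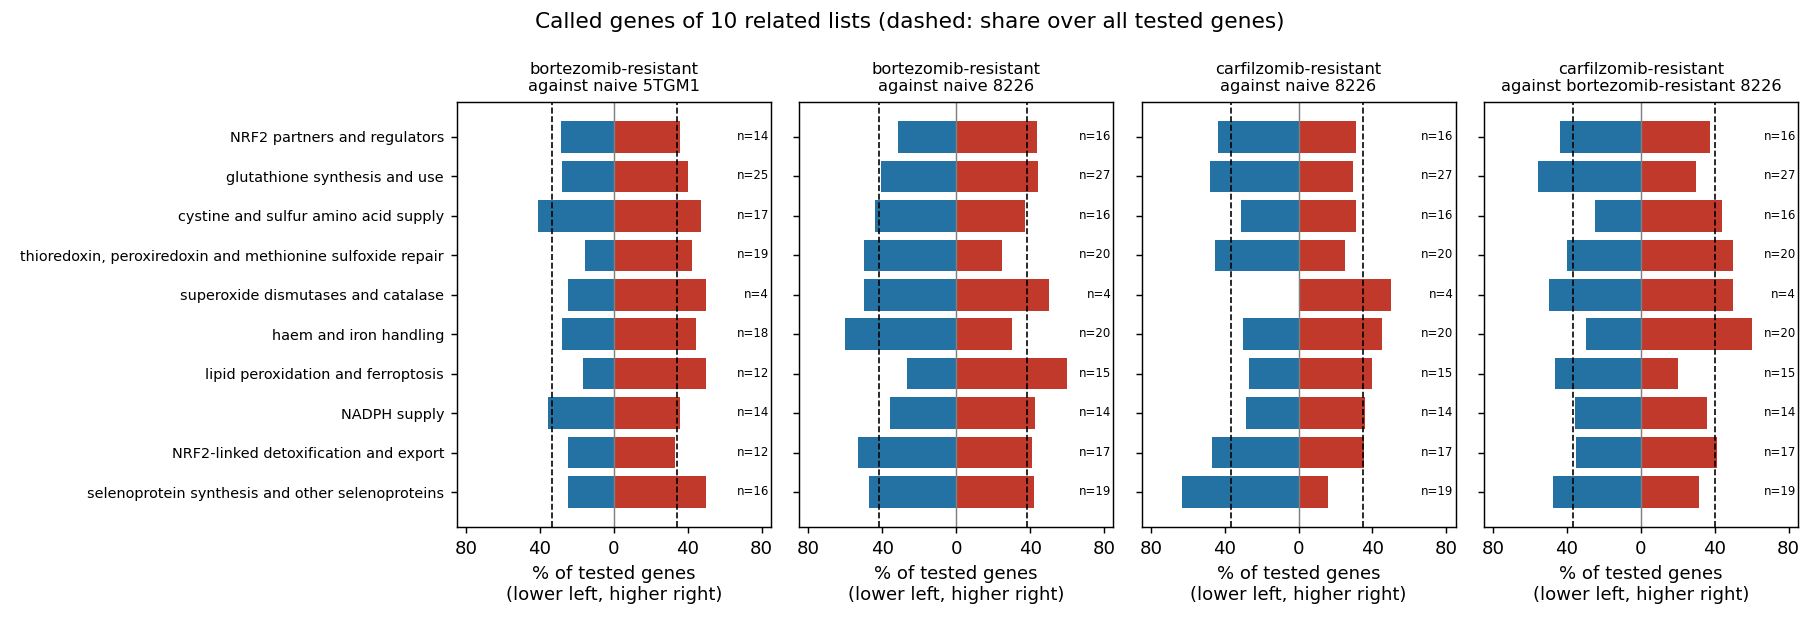
Share of the tested genes of 10 related lists (rows, number tested at right) that were higher (red, right) or lower (blue, left) at an adjusted p of 0.05 in 4 comparisons, in percent; dashed lines give the share of all tested genes. In carfilzomib-resistant 8226 against naive, the selenoprotein bar reaches farther left than any other, with 12 lower of 19, and in bortezomib-resistant 8226 the haem and iron bar does with this TMM scaling, with 12 lower of 20 (9 with plain library-size scaling, under the 10 of the thioredoxin list).

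The genes whose pattern lay nearest to the most changed member were found by distance between centred log2(CPM + 0.5) values, which is a description only. For NQO1 over the 9 libraries of 8226, among 9052 genes with a mean of at least 10 CPM, these were APOBEC3B (distance 0.144), UNC13B (0.222) and CABLES1 (0.237). APOBEC3B stood at 55.7 CPM in naive, 134 in bortezomib-resistant and 34.9 in carfilzomib-resistant cells. For Hmox1 over the 6 libraries of 5TGM1, among 8383 genes, they were P4ha2 (0.0808), Pou2af1 (0.119) and Adprh (0.122). Pou2af1, itself a plasma cell marker, averaged 892 CPM in naive and 2044 CPM in bortezomib-resistant 5TGM1.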

How the data were processed

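Gene reads were counted in 15 libraries, and the groups came from the sample titles. The authors deposited whole-number counts per gene symbol, not normalized, in the 3-column layout of STAR, a tool named in the submitters' processing notes. Neither its version nor the build of each file is given in the sources used here. Of the columns, that for the strand opposite the gene was used, since 1.43% to 2.12% of stranded gene reads lay in the other. Reads mapped to several places (8.95% to 16.3%) or on no gene (10.4% to 16.6%) stayed out of library sizes and tests. The depth per library is given in the report, and 3 counts corresponded to 0.0414 to 0.0612 CPM in a 5TGM1 and 0.0521 to 0.0875 CPM in an 8226 library. Limits and intervals of this kind cover counting error only, at 95% confidence.

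In R 4.3.3, edgeR 4.0.16 was run on the counts with TMM, filterByExpr and the quasi-likelihood F test, with all groups of a line in 1 fit and Benjamini-Hochberg adjustment over all genes at 0.05. The interaction was fitted on genes shared by symbol. Standard errors are the size of the log2 change divided by the square root of F, and 95% intervals use 1.96 of them. Intervals on ratios of counts are exact binomial ones. The test was checked on simulated data, where in the comparison of bortezomib-resistant with naive 8226 over 13595 genes it recovered 100 of 100 genes changed by 1 and 91 of 100 changed by 0.5 on the log2 scale. Among unchanged genes it made 14 false calls there. In the 5TGM1 comparison over 11917 genes it recovered 99 of 100 changed by 1 and 92 of 100 changed by 0.5. It made 18 false calls in that comparison. In the interaction over 11509 genes it recovered 100 of 100 genes changed by 1 but 66 of 100 changed by 0.5, with 2 false calls, so smaller differences between the lines can be missed. The simulation used a shared profile for all groups, a fixed spread, and changes in these genes alone, as many up as down. In the real 8226 comparison 11095 of 13910 genes were called, so the simulation does not test TMM scaling under such wide change.

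Alternatives were library size alone, DESeq2 1.42.0, no filter, counts without regard to strand, a replicate block, only the 2 groups compared, and leaving out each library. The members and lists were chosen with earlier results of these data known. Each member is named in each comparison. List genes named were taken from the 2 to 4 called genes with the largest change per list and comparison among those at 10 CPM or more in the higher group, and some of these are not printed. The libraries of a group differed beyond sampling noise in each pair (chi-square per degree of freedom 3.98 to 25.8). Levels of members and list genes are not compared between genes, because no gene lengths of the files' builds were used. The marker sums, and the single genes set beside them, are CPM without regard to gene length.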

Additional observations from a re-analysis of the deposited data

Results flagged for a closer look

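For 6 members the change with bortezomib resistance differed between 8226 and 5TGM1 by the interaction test, given as the log2 change in 8226 minus that in 5TGM1. The difference was 2.23 for NQO1 and 0.33 for GCLM. It was -0.69 for HMOX1, -0.54 for KEAP1, -0.50 for GCLC and -0.42 for GPX4. The NQO1 difference rests on 55 and 26 counts in the naive and resistant 5TGM1 libraries.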

How the results depend on the processing

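Plain library-size scaling, which leaves out TMM, had the widest effect. It took the members called lower in bortezomib-resistant 8226 from 5 to 2 and those called higher in carfilzomib-resistant 8226 from 1 to 4. It reversed uncalled changes of KEAP1 (0.0363) and GCLC (0.0559) in carfilzomib-resistant against naive 8226, of TXNRD1 (-0.0374) and SLC7A11 (-0.0100) between the resistant lines, and of TXNRD1 (0.16) and SLC7A11 (0.14) in the interaction, where NFE2L2 then passed at 0.19. The share of interaction calls that were higher went from 48.3% to 58.9%. The uncalled NFE2L2 interaction turned to -0.0369 in DESeq2 and -0.0047 without the low-count filter, and the uncalled GCLC change in the carfilzomib-resistant line to 0.0023 without that filter. The cause was not tested.

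Leaving out each library in turn gave 1 to 2 members called higher in carfilzomib-resistant 8226 (2 without naive library 2), where the changes ran from -0.0816 to 0.0358 for KEAP1 and from -0.0603 to 0.0514 for GCLC. In the interaction they ran from -0.0307 to 0.0401 for NFE2L2, -0.0496 to 0.0284 for TXNRD1 and -0.104 to 0.0114 for SLC7A11. Where a group was left with 2 libraries, the fit pooled the spread over groups.

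Counts without regard to strand kept all 48 member values on their side of the threshold. The same held for all 48 with the replicate block, under which 7716 genes were called in 5TGM1 (8051 without it) and 11094 in bortezomib-resistant 8226 (11095 without it). Deviations of same-numbered libraries correlated at -0.183 to -0.0763 in 5TGM1 and -0.225 to 0.335 in 8226. For unlike numbers the ranges were -0.0751 to 0.205 and -0.293 to 0.237. With 3 libraries in a group these values cannot decide whether the number pairs the samples. Nqo1 and Srxn1 had few counts in 5TGM1, with 55 and 26 for Nqo1 in the naive and resistant group and 1 and 0 for Srxn1. The reason for these low counts was not tested.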
